A study of Mus musculus with 6 samples.

Results

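The D cyclins and their kinases are 5 genes, Ccnd1, Ccnd2 and Ccnd3 together with Cdk4 and Cdk6, chosen by name from the 18193 genes that the arrays measured. They were read by 19 of the 34945 probe sets that carry a single gene symbol. Within each gene the brightest probe set, by its mean over the 6 clones, leads, and the others are given beside it. RNA came from cultured mouse embryonic fibroblasts: 3 FHL2 knockout clones, labelled FHL2-/-, and 3 wild type clones, labelled WT, with 1 array for each clone. All 6 clones had become immortal on their own in culture, a process that is known to favour cells with a weakened p53 or Arf response, and each line is a single clone. The labels name no treatment, time or age. They call the clones biological replicates without saying whether those of 1 genotype derive from different embryos, and each p-value rests on the spread among clones. Values of single clones follow these orders, E, H, J for the knockout and E, F, I for the wild type. The comparison asks how the transcripts of these cell cycle genes differ between fibroblasts without and with FHL2. FHL2 is a LIM-domain adaptor that works with regulators of transcription such as AP-1 and beta-catenin and has been described as a coactivator of the cyclin D1 gene.

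Growth factors raise the D cyclins, which bind Cdk4 or Cdk6 in the G1 phase. The active pair phosphorylates the retinoblastoma protein and its relatives, E2F factors are released, and the genes of DNA synthesis follow. Ink4 proteins block both kinases, while p21 and p27 bind the complexes and also restrain Cdk2. The 3 D cyclins can replace each other in many cells, and fibroblasts usually carry all of them with both kinases.

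On the log2 scale of the arrays, array medians were 4.52 to 4.54 in knockout clones and 4.44 to 4.46 in wild type clones, and the median difference over all genes was 0.04. The control probe set at the 3' end of Gapdh also lay apart by genotype, at 11.90 to 12.41 in knockout clones and 12.73 to 12.95 in wild type clones. That of beta-actin read 13.18 to 13.42 in knockout clones and 13.53 to 13.66 in wild type clones. The control probe sets at the middle and the 5' end of both were also lower in every knockout clone than in every wild type clone. Of the probe sets with a single gene symbol 17.5% were so. The part of these controls in the results was not tested. Fhl2, read by 1 probe set, had 6.01, 6.44 and 6.57 in the knockout clones, against 9.88, 8.57 and 9.64 in the wild type ones (difference -3.02, SE 0.35, limma adjusted p = 0.00400; exact two-sided permutation p = 0.10, the smallest that 3 against 3 clones allow). The sources used here do not say whether that probe set falls within the deletion. All 11 fibroblast markers lay above the 80th percentile of gene levels, taken as means over the 6 clones. Of these 3 rose and 2 fell, where 9.04% of all genes rose and 10.0% fell. Lum read 11.14, 10.33 and 11.94 in the knockout clones, against 5.75, 8.58 and 4.63 in the wild type ones. Dcn (2.04) and Pdgfra (1.76) also rose, while Thy1 (-1.34) and Pdgfrb (-0.64) fell. The part of these differences in the results was not tested. Of the 6 endothelial markers only Tek passed, at 8.36, 4.68 and 8.91 in the knockout clones, against 3.27, 3.31 and 2.54 in the wild type ones, and the summed level of the 6 (log2 of the summed intensities) was 7.56 to 9.12 in knockout clones and 6.34 to 7.24 in wild type clones, while all 6 lay below the median of gene levels, with Pecam1 and Cdh5 at percentiles 17.8 and 20.1; the part of this in the results was not tested. Macrophage and muscle lists held 0 genes that passed, and of the 7 epithelial markers 1, Epcam, rose. Among the knockout clones H was the one farthest from its group, with correlations across genes of 0.964 and 0.968 with the other knockout clones, against 0.991 between those. Xist, the RNA that coats the silenced X chromosome of female cells, read 9.82 in clone H, against 5.03 and 5.11 in the other knockout clones and 4.69 to 5.004 in wild type clones; the part of this difference in the results was not tested. Results without clone H are given beside each member.

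Ccnd1, Ccnd2 and Cdk6 were lower in knockout clones, with log2 differences of -1.26 to -1.70, or 2.39-fold to 3.25-fold, while Ccnd3 and Cdk4 did not pass. Thus 3 of the 5 genes were called lower (limma, Benjamini-Hochberg adjusted p under 0.05 over all genes), where 10.0% of all genes were, and none was called higher, where 9.04% were. Probe sets differ in how brightly they read a transcript, so the levels of different genes are not set against each other. In 4 of the 5 every knockout clone lay below every wild type clone, which held for 18.2% of all genes (38.9% in either direction). Of the 19 probe sets 13 were called lower, against 8.99% of all probe sets, and none higher, against 7.82%. In 15 of the 19 the knockout clones lay below the wild type clones without overlap and in none above them, where 17.5% of all probe sets lay below and 36.9% had no overlap in either direction. Probe sets of a gene read the same RNA and are not separate evidence.

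**Figure D1:**
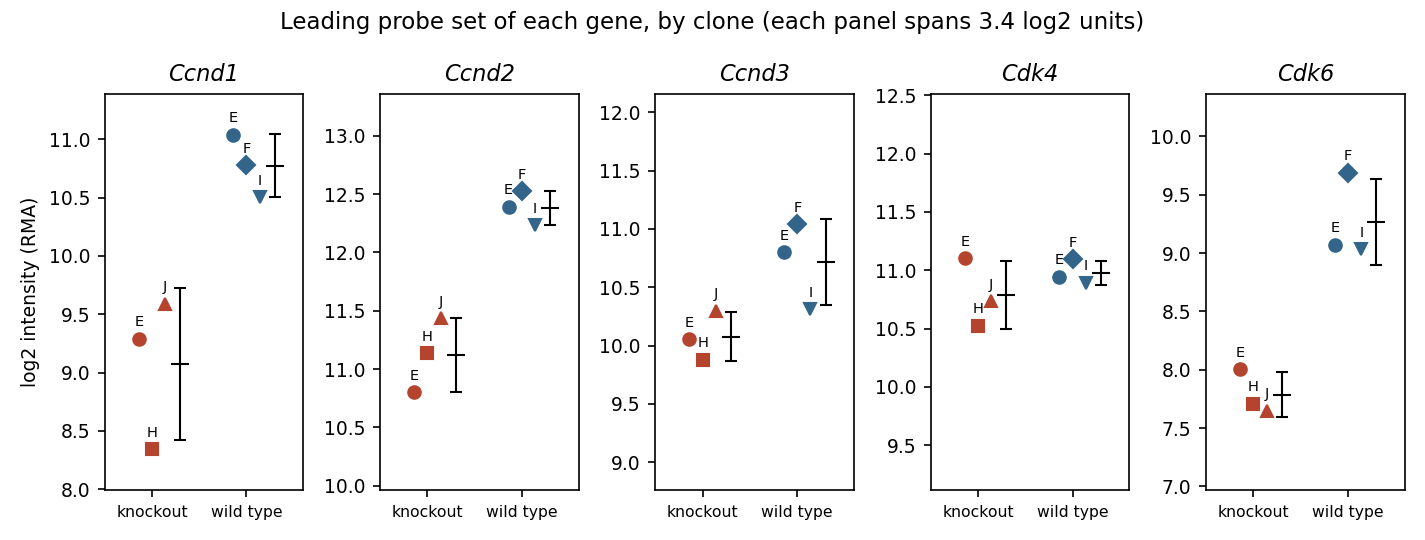
Log2 intensity of the leading probe set of each gene in every clone, with knockout clones left of wild type clones and letters naming the clones; bars give the mean and SD of 3 clones, and each panel spans 3.4 log2 units. Ccnd1, Ccnd2 and Cdk6 have gaps of 0.91, 0.80 and 1.03 between the genotypes, Ccnd3 a gap of 0.01, and Cdk4 an overlap.

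Ccnd1 encodes cyclin D1, the member that answers most directly to Ras and adhesion signals in fibroblasts. Its leading probe set read 9.29, 8.34 and 9.59 in the knockout clones, against 11.04, 10.78 and 10.50 in the wild type ones. Clone H was the lowest of all, and the groups did not overlap. The means were 9.07 ± 0.65 in knockout clones and 10.77 ± 0.27 in wild type clones (SD, n = 3 each), so Ccnd1 fell by 1.70 on the log2 scale (SE 0.33, 95% interval -2.49 to -0.90, limma adjusted p = 0.0177). Both other probe sets gave the same picture, with differences of -1.95 and -1.67, and in all 3 probe sets clone H was the lowest knockout clone and clone J the highest. Without clone H the difference was -1.33 (SE 0.19, limma adjusted p = 0.00398). The call was lost without clone E of the wild type (-1.56, limma adjusted p = 0.0731) or its clone F (-1.70, limma adjusted p = 0.0605), in a range of 0.00398 to 0.0731 over 16 alternatives.

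Ccnd2 encodes cyclin D2, which other signals and FOXO factors control in many cell types. Its leading probe set read 10.80, 11.13 and 11.44 in the knockout clones, against 12.39, 12.52 and 12.24 in the wild type ones. Clone E was the lowest here, and clone H lay in the middle of its group. The means were 11.12 ± 0.32 in knockout clones and 12.38 ± 0.14 in wild type clones (SD, n = 3 each), so Ccnd2 fell by 1.26 (SE 0.18, 95% interval -1.69 to -0.83, limma adjusted p = 0.00703), with a difference of -1.26 without clone H as well. All 7 probe sets of the gene fell, and each of them also passed in every fit that left out 1 clone (42 of 42 fits). Knockout clone E was the lowest clone in all 7.

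The 7 probe sets of Ccnd2 differed in size. Of these, 5 gave differences of -1.19 to -1.47, while 1448229_s_at gave -2.15 (SE 0.26) and 1416123_at gave -2.46 (SE 0.32). The probe set 1416123_at read 5.81, 6.79 and 7.02 in the knockout clones, against 9.17, 9.11 and 8.73 in the wild type ones. Set against the leading probe set within each clone, it differed by -1.204 between knockout and wild type clones, without overlap, and 1448229_s_at by -0.89, also without overlap. The 1455956_x_at probe set had no overlap either, at a small difference of -0.21, and the other 3 overlapped. The sources used here do not place these probe sets on the transcript.

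Ccnd3 encodes cyclin D3, the member best known from lymphocytes and from cells that leave the cycle to differentiate. Its leading probe set read 10.05, 9.88 and 10.30 in the knockout clones, against 10.80, 11.04 and 10.31 in the wild type ones. Knockout clone J and wild type clone I were nearly level, so the groups stood apart by only 0.01. The difference was -0.64 (SE 0.21, 95% interval -1.15 to -0.13) and did not pass (limma adjusted p = 0.0858); the interval is for this gene alone, before adjustment. Without wild type clone I, the difference was -0.84 and passed (limma adjusted p = 0.0387, in a range of 0.0387 to 0.288 over 16 alternatives), and without knockout clone H it was -0.54. The other probe sets gave 0.05 (95% interval -0.40 to 0.50) and -0.24 (-0.52 to 0.03), and the mean of all 3 was -0.28. The last of them read 2.65 to 2.91 in knockout clones and 2.96 to 3.14 in wild type clones, at percentile 12.0 of all probe sets.

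Cdk4 is the kinase partner found in nearly all dividing cells. Its leading probe set read 11.11, 10.53 and 10.74 in the knockout clones, against 10.95, 11.10 and 10.89 in the wild type ones. The groups overlapped, with knockout clone E the highest clone of all and clone H the lowest. The difference was -0.19 (SE 0.17, 95% interval -0.59 to 0.21, limma adjusted p = 0.486), so a fall as large as those of Ccnd1, Ccnd2 or Cdk6 lay outside the interval, while a fall of up to 0.59 did not. It was -0.06 without clone H, and both other probe sets gave -0.15 and -0.14. Subtracting in each clone the median of the 40 measured genes closest along the chromosome moved it to -0.68, still without passing (limma adjusted p = 0.134, in a range from 0.134 to nearly 1 over 16 alternatives). The medians of these neighbours were 5.90, 6.46 and 6.18 in the knockout clones, against 5.71, 5.57 and 5.79 in the wild type ones. Taken gene by gene, the median difference of the same 40 genes was only 0.09. The subtracted median is of uncentred levels and depends on which genes lie in the middle.

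Cdk6 is the second kinase partner, restricted to fewer tissues than Cdk4 and abundant in blood cells. Its leading probe set read 8.01, 7.71 and 7.65 in the knockout clones, against 9.07, 9.69 and 9.03 in the wild type ones. The knockout clones lay within 0.36 of each other, and their gap to the nearest wild type clone was 1.03, the widest among the 5 genes. The means were 7.79 ± 0.19 in knockout clones and 9.26 ± 0.37 in wild type clones (SD, n = 3 each), so Cdk6 fell by 1.48 (SE 0.21, 95% interval -1.97 to -0.98, limma adjusted p = 0.00673), with a difference of -1.44 without clone H. The call held in each of the 6 fits that left out 1 clone. Its second probe set gave -1.39. The third, 1460291_at, which sits at percentile 46.8 of all probe sets, read 4.75, 4.51 and 4.69 in the knockout clones, against 5.20, 5.37 and 5.14 in the wild type ones. It fell by 0.58 (SE 0.12, limma adjusted p = 0.0210), a call that did not hold without clone J of the knockout (0.0647) or clone E (0.0667) or F (0.0675) of the wild type.

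**Figure D2:**
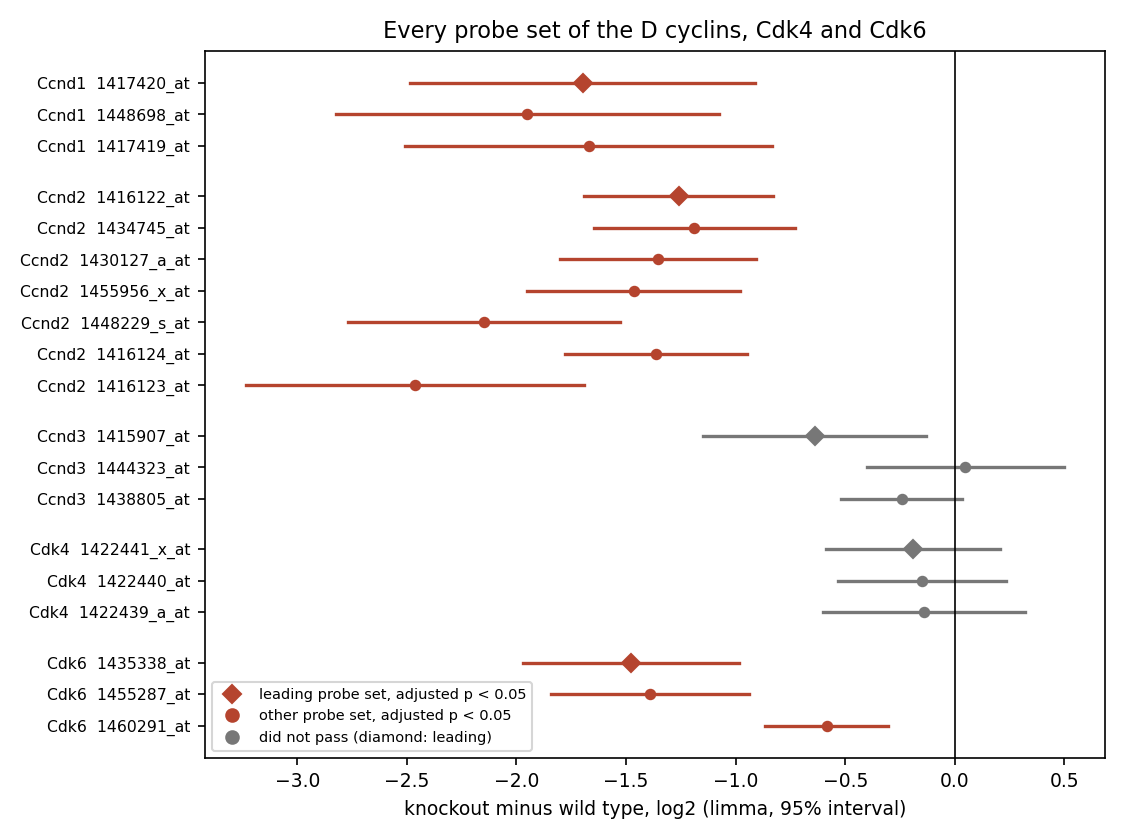
Difference of each of the 19 probe sets, in log2 units of knockout minus wild type (points) with its 95% interval from limma (lines); diamonds mark the leading probe sets, red those with an adjusted p under 0.05. All 13 probe sets of Ccnd1, Ccnd2 and Cdk6 lie below 0 and passed, from -0.58 to -2.46, while the 6 of Ccnd3 and Cdk4 lie between -0.64 and 0.05.

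The order of the clones was not shared by the members within the knockout group. Orders and spans given here are those of the leading probe sets. Clone H was the lowest knockout clone for Ccnd1, Ccnd3 and Cdk4, clone E for Ccnd2 and clone J for Cdk6. Among wild type clones, clone I was the lowest for all 5 genes and clone F the highest for all but Ccnd1. Other probe sets differed in part: over the 7 of Ccnd2 the highest wild type clone was E in 3, F in 3 and I in 1. For Ccnd1 the knockout clones spanned 1.25 and the wild type clones 0.54, and for Ccnd2 0.64 and 0.29. For Cdk6 and Ccnd3 the knockout clones were the closer ones, with spans of 0.36 and 0.42 against 0.65 and 0.73 in wild type clones.

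**Figure D3:**
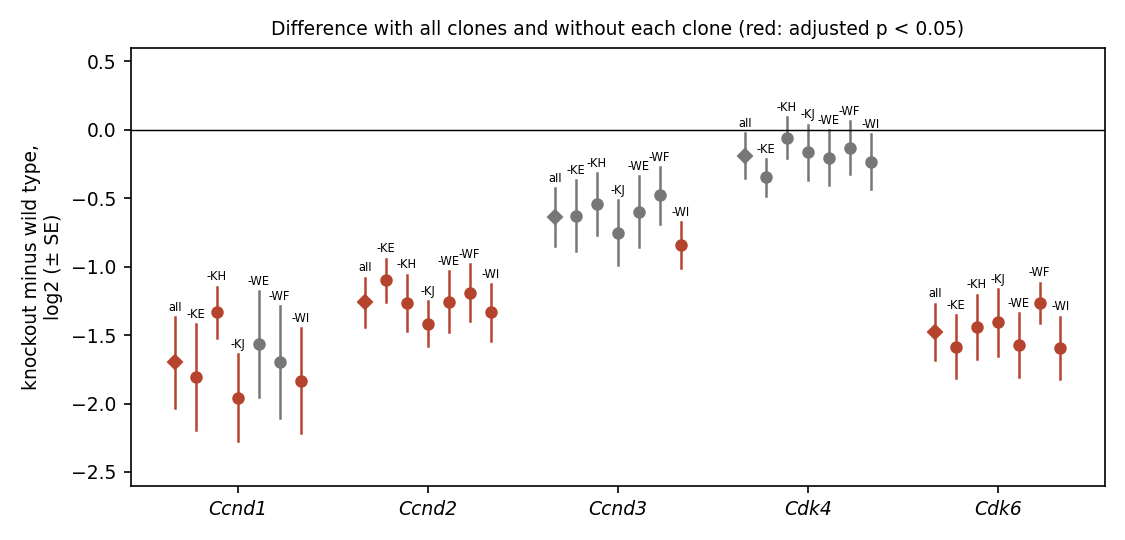
Difference of the leading probe sets, in log2 units of knockout minus wild type (points, with the SE of limma), with all clones (diamonds) and without each clone (circles; K and W stand for knockout and wild type); red points passed at an adjusted p under 0.05. Ccnd2 (-1.42 to -1.10) and Cdk6 (-1.59 to -1.26) passed without any 1 clone, Ccnd1 (-1.96 to -1.33) failed without wild type clone E or F, and Ccnd3 (-0.84 to -0.48) passed only without wild type clone I.

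Differences between members were read within each clone and were not tested. Such differences can show unequal change but not which member changed. The pairs are made of the values already given and are no separate evidence. Of the 10 pairs 6 had no overlap between genotypes and 4 overlapped. The 6 are exactly the pairs of 1 member that fell with 1 that did not pass, so the count restates the calls. The share of all gene pairs without overlap was not computed, while 38.9% of single genes had no overlap in either direction. The widest difference among the 10 pairs was that of Ccnd1 less Cdk4, at -1.51 between knockout and wild type clones. Cdk4 less Cdk6 differed by 1.29, without overlap. That difference, centred on its mean over the 6 clones, was 0.74, 0.46 and 0.73 in the knockout clones, against -0.48, -0.95 and -0.50 in the wild type ones. Within the D cyclins, Ccnd1 less Ccnd3 differed by -1.06 and Ccnd2 less Ccnd3 by -0.62, both without overlap, while Ccnd1 less Ccnd2 overlapped (-0.44).

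The promoters of the 2 kinases are shown because Cdk6 fell and Cdk4 did not pass. They come from RefSeq (GRCm38.p6), plus strand, 250 bases before to 50 after the start site: chr10:127063285-127063584 for Cdk4 and chr5:3343643-3343942 for Cdk6. Capitals mark matches to the motifs searched on both strands: TGANTCA (AP-1), TGACGTCA (CRE), CACGTG (E-box, bound by Myc and its relatives), GGGCGG (GC box), TTTNNCGC (E2F) and ATCAAAG (TCF/LEF). Neighbouring capitals can belong to overlapping or adjoining matches.
Cdk4: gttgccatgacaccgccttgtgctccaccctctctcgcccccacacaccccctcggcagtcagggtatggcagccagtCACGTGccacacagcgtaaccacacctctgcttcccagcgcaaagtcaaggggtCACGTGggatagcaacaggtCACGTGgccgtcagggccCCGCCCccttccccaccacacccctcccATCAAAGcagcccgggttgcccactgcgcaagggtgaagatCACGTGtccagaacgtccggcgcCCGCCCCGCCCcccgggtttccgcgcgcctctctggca
Cdk6: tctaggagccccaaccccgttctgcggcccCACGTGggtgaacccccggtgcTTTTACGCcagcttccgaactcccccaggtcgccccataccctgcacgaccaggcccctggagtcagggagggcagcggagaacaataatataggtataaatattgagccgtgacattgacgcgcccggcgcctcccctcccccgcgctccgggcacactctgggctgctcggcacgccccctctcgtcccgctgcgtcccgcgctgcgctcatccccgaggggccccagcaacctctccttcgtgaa

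The Cdk4 window held 4 E-boxes, whose first bases lay 172, 118, 98 and 11 bases before the start site, beside 3 GC boxes, of which 2 overlap, and 1 TCF/LEF match. The Cdk6 window held 1 E-box and 1 E2F match, 220 and 198 bases before the start, and no GC box. Among 32851 promoter windows of the same length, 7.15% held an E-box, 0.0244% (8 windows) held 4 or more, 35.7% a GC box, 5.17% an E2F match and 3.73% a TCF/LEF match. The cut of 4 E-boxes equals the count in the Cdk4 window and was not planned beforehand, so the share of 0.0244% is no test. AP-1 and CRE letters, held by 7.81% and 1.79% of the windows, were in neither kinase window nor in either of the 2 Ccnd3 windows, each of which held 2 GC boxes. For 3 of the 5 members the table had a window; Ccnd1 and Ccnd2 are named only. A match is a description of the letters.

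The inhibitors of these kinases did not all move one way. Of 7 measured members of the Ink4 and Cip/Kip families, 2 fell, 1 rose and 4 did not pass, where 10.0% of all genes were called lower and 9.04% higher. Of the 7, 6 lay below 0, where 43.6% of all genes did (median -0.88, against 0.04 over all genes). In 4, Cdkn2a, Cdkn2b, Cdkn2c and Cdkn2d, every knockout clone lay below every wild type clone, which held for 18.2% of all genes. In 1, Cdkn1a, every knockout clone lay above (38.9% of all genes had no overlap in either direction). Cdkn1a, which encodes p21, read 10.23, 11.15 and 10.76 in the knockout clones, against 7.07, 6.65 and 7.31 in the wild type ones (difference 3.70, SE 0.27, limma adjusted p = 0.00131). Cdkn2a, the Ink4a/Arf locus, fell by 2.004 (SE 0.30, limma adjusted p = 0.00827). Its Ink4a and Arf transcripts were not told apart here. Cdkn2c, which encodes p18, read 8.80, 8.63 and 7.81 in the knockout clones, against 9.74, 10.41 and 9.43 in the wild type ones. It fell by 1.45 (SE 0.34, limma adjusted p = 0.0321), a call that did not hold without knockout clone J or wild type clone E or F (0.0777 to 0.0934). Cdkn2d (p19) gave -0.62 (limma adjusted p = 0.0594), which passed without wild type clone I (0.0272), and Cdkn2b (p15) gave -0.99 (limma adjusted p = 0.0994), which passed without clone H (0.0126). Both also passed with array weights (0.0345 for Cdkn2d and 0.0236 for Cdkn2b) and with neighbouring genes subtracted (0.0450 and 0.0464), Cdkn2d further with median centring (0.0452) and among brighter genes alone (0.0443). The call of Cdkn2c was also lost against a 1.2-fold threshold (0.0651). Cdkn1b (p27) gave -0.17 and Cdkn1c (p57) -0.88, and neither passed (limma adjusted p = 0.566 and 0.477).

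Downstream of the kinases most values lay below 0, where 43.6% of all genes did. Of 13 pocket proteins, E2F factors and partners, 3 fell, 0 rose and 10 did not pass (10 below 0, median -0.34), where 10.0% of all genes fell and 9.04% rose. E2f8, an E2F factor that represses transcription, fell by 0.94 (SE 0.16, limma adjusted p = 0.0120). Tfdp2, a DP partner of E2F factors, fell by 0.85 (SE 0.15), and its call did not hold without knockout clone J or wild type clone F or I (limma adjusted p = 0.0505 to 0.0541). Rbl1, the pocket protein p107, fell by 0.76 (SE 0.17), a call that did not hold without knockout clone J or any 1 wild type clone (limma adjusted p = 0.0644 to 0.0924). Rb1, the retinoblastoma gene, differed by 0.42 (SE 0.19, limma adjusted p = 0.174), with knockout clones at 6.32 to 6.61 and wild type clones at 5.73 to 6.36. E2f1 differed by -0.41 (limma adjusted p = 0.0725). It passed without knockout clone E (0.0481), with median centring (0.0403) and as the mean of its probe sets (0.0290). It also passed without probe sets ending in _x_at, _s_at or _a_at (-0.58, 0.0357) and with neighbouring genes subtracted (-0.72, 0.0350). With neighbouring genes subtracted Tfdp2 gave -0.51 and lost its call (0.102), and the call of Rbl1 was lost against a 1.2-fold threshold (0.0899). E2f8 gave -0.62 as the mean of its probe sets and still passed.

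Of 9 cyclins, kinases and phosphatases that act after the D cyclins, all lay below 0 (median -0.75; 43.6% of all genes did), and 3 fell, 0 rose and 6 did not pass, where 10.0% of all genes fell and 9.04% rose. Cdc25a, the phosphatase that activates Cdk2, fell by 0.94 (SE 0.17), a call that did not hold without knockout clone J or wild type clone F (limma adjusted p = 0.0526 to 0.0532). Ccnb2, cyclin B2 of mitosis, fell by 1.01 (SE 0.20), a call that did not hold without wild type clone E or F (limma adjusted p = 0.0522 to 0.0668). Cdk1, the mitotic kinase, fell by 0.84 (SE 0.20), a call that did not hold without knockout clone E or J or wild type clone E or F (limma adjusted p = 0.0529 to 0.109). Ccne1, cyclin E1, differed by -0.67 (limma adjusted p = 0.0751) and passed without clone H (0.0302), with array weights (0.0295) and with neighbouring genes subtracted (-1.34, 0.00395). Cdk1 gave -1.56 with neighbouring genes subtracted and lost its call against a 1.2-fold threshold (limma adjusted p = 0.101), and Cdc25a gave -0.49 as the mean of its probe sets, still passing. Cdk2 itself read 7.30 to 7.71 in knockout clones and 7.37 to 7.85 in wild type clones (difference -0.07, limma adjusted p = 0.817).

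Among 16 E2F target genes of the S phase, 5 fell, 0 rose and 11 did not pass (14 below 0, median -0.58), where 10.0% of all genes fell, 9.04% rose and 43.6% lay below 0. Cdt1, which licenses replication origins, read 7.48, 7.28 and 7.32 in the knockout clones, against 8.94, 8.44 and 8.49 in the wild type ones (difference -1.26, SE 0.16, limma adjusted p = 0.00511). The helicase subunits Mcm2 and Mcm6 fell by 1.06 (SE 0.19) and 0.92 (SE 0.16); the call of Mcm2 was lost without knockout clone J or wild type clone E (limma adjusted p = 0.0526 to 0.0573) and that of Mcm6 without wild type clone E (0.0561). Ung, a uracil-DNA glycosylase, fell by 1.12 (SE 0.24), a call that did not hold without knockout clone J or any 1 wild type clone (limma adjusted p = 0.0603 to 0.0896). The fifth, named after its values were seen, was Mybl2, the B-Myb factor, at -1.27, a call that did not hold without knockout clone E or J or wild type clone F (limma adjusted p = 0.0858 to 0.135). With neighbouring genes subtracted Ung gave -0.63 and Mcm6 -1.06, and both calls were lost (limma adjusted p = 0.202 and 0.0502), while Mcm2 gave -1.66 and passed. Against a 1.2-fold threshold the calls of Ung (0.0600) and Mybl2 (0.0983) were lost. Cdt1 gave -0.81 as the mean of its probe sets and passed. Rrm2 and Rrm1, the subunits of ribonucleotide reductase, differed by 0.25 and 0.12 and did not pass.

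**Figure D4:**
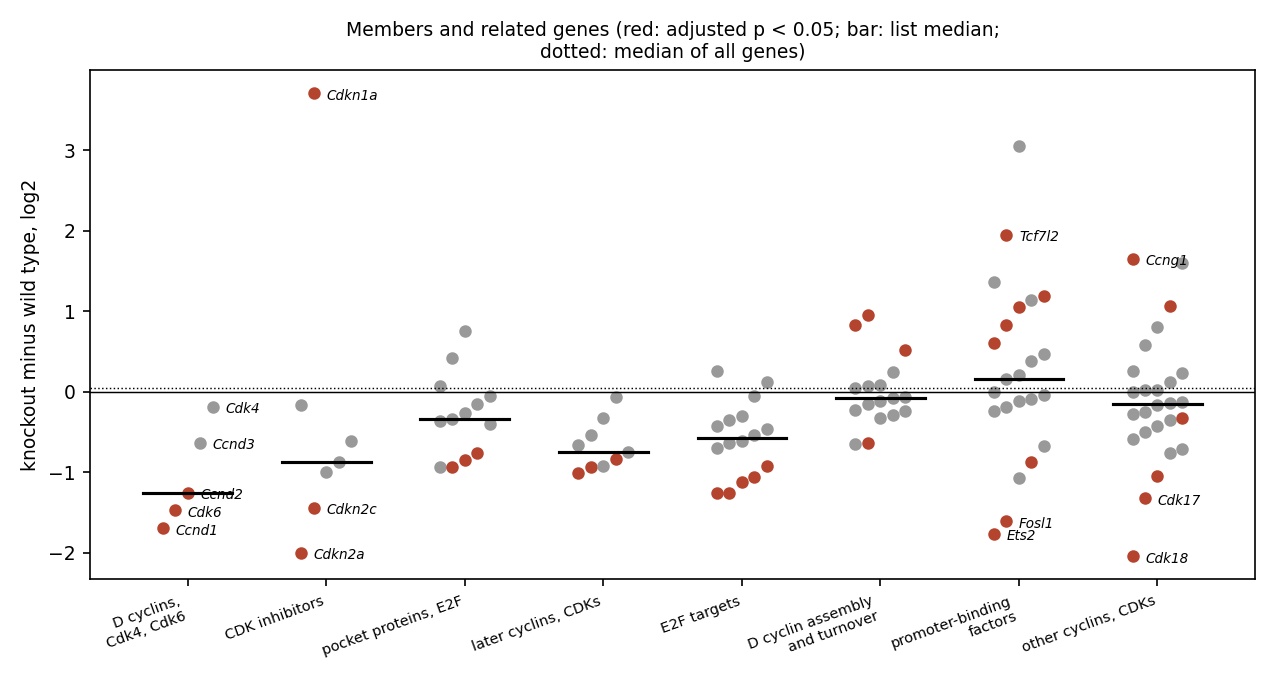
Difference of the 5 members and of the genes in 7 related lists, in log2 units of knockout minus wild type; each point is a gene, red points passed at an adjusted p under 0.05, bars are list medians and the dotted line is the median of all genes (0.04). The lists that act after the D cyclins have medians of -0.34, -0.75 and -0.58, and those of D cyclin turnover, promoter-binding factors and other cyclins have medians of -0.07, 0.15 and -0.16.

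Genes for the activation, assembly and turnover of D cyclins showed no common direction. Of 17 measured, 3 rose, 1 fell and 13 did not pass (median -0.07), a share of calls near the 19.0% of all genes. Usp22, a deubiquitinase that has been described to stabilise cyclin D1, rose by 0.82 (SE 0.15), a call that did not hold without knockout clone J or wild type clone E (limma adjusted p = 0.0515 to 0.0556). Cul1, the scaffold of SCF ubiquitin ligases, rose by 0.95 (SE 0.17), a call that did not hold without knockout clone E or J or wild type clone F (limma adjusted p = 0.0503 to 0.0547). Mnat1, an assembly factor of the kinase that activates Cdk4 and Cdk6, rose by 0.52 (SE 0.12), and the call held without knockout clone H or wild type clone I, but not without any of the other 4 (limma adjusted p = 0.0616 to 0.105). Cdc37, the chaperone partner that helps Cdk4 to fold, fell by 0.64 (SE 0.15), a call that did not hold without any 1 clone other than clone H (limma adjusted p = 0.0633 to 0.106). None of these 4 calls held when the median of the 40 neighbouring genes was subtracted (0.37, 0.50, 0.26 and -0.52; limma adjusted p = 0.189, 0.0862, 0.312 and 0.0744). The calls of Mnat1 (0.209) and Cdc37 (0.135) were also lost against a 1.2-fold threshold, and that of Mnat1 with median centring (0.0507). Ccnh and Cdk7 of the activating kinase differed by -0.15 and -0.23, and Gsk3b, a kinase of cyclin D1 turnover, by -0.07, all without passing.

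The 23 measured factors listed for D cyclin promoters include beta-catenin, which acts there through TCF partners. Of these 23, 5 rose, 3 fell and 15 did not pass (median 0.15), where 9.04% of all genes rose and 10.0% fell. Fosl1, the AP-1 subunit Fra-1, read 5.44, 5.57 and 4.72 in the knockout clones, against 6.93, 6.66 and 6.99 in the wild type ones (difference -1.61, SE 0.24, limma adjusted p = 0.00760). Tcf7l2, a TCF partner of beta-catenin, rose by 1.94 (SE 0.30, limma adjusted p = 0.00882). Stat5a rose by 0.83 (SE 0.16), a call that did not hold without knockout clone J or wild type clone E or F (limma adjusted p = 0.0568 to 0.0620), and Foxo3 by 0.60 (SE 0.13), a call that did not hold without knockout clone E or J or wild type clone E or I (0.0633 to 0.0811). The other 4 that passed are named after their values were seen: Jun (1.19) and Foxo1 (1.05) rose, and Myc (-0.87) and Ets2 (-1.77) fell. The call of Myc was lost without knockout clone E or J or wild type clone E (limma adjusted p = 0.0669 to 0.0771), that of Jun without knockout clone J or any 1 wild type clone (0.0558 to 0.112), that of Foxo1 without any 1 clone other than clone H (0.0580 to 0.0868), and that of Ets2 without knockout clone E or any 1 wild type clone (0.0639 to 0.108). With neighbouring genes subtracted Stat5a gave 0.48 and Jun 0.68, and both calls were lost (limma adjusted p = 0.129 and 0.169), while Tcf7l2 gave 1.16 and Foxo3 1.09, both passing. Against a 1.2-fold threshold the calls of Stat5a (0.0581), Foxo3 (0.120), Foxo1 (0.0596), Myc (0.0752), Ets2 (0.0667) and Jun (0.0842) were lost. Ets2 gave -0.86 as the mean of its probe sets and passed. Fos, the AP-1 subunit c-Fos, also named after its values were seen, read 11.65, 12.12 and 12.79 in the knockout clones, against 9.16, 11.08 and 7.16 in the wild type ones, and did not pass (difference 3.05, SE 0.93, limma adjusted p = 0.0679). Ctnnb1, which encodes beta-catenin, read 11.76 to 11.86 in knockout clones and 11.80 to 12.20 in wild type clones and did not pass.

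Of 26 other cyclins and cyclin-dependent kinases, 4 fell, 2 rose and 20 did not pass (median -0.16), a share of calls near the 19.0% of all genes (10.0% lower, 9.04% higher). Ccng1, cyclin G1, a target of p53, rose by 1.65 (SE 0.15, limma adjusted p = 0.00214) and Ccnl1, a cyclin of RNA splicing, by 1.06 (SE 0.17, limma adjusted p = 0.00925). Cdk17 fell by 1.33 (SE 0.15; -0.77 as the mean of its probe sets) and Cdk11b by 1.05 (SE 0.16); these 4 calls held without each of the 6 clones, while those of Ccnl1 and Cdk11b were lost when neighbouring genes were subtracted (0.25 and -0.50; limma adjusted p = 0.561 and 0.108). Cdk18, named after its values were seen, read 5.57, 6.60 and 5.41 in the knockout clones, against 8.13, 8.003 and 7.59 in the wild type ones (difference -2.05, SE 0.33, limma adjusted p = 0.0101). Cdk9, the kinase of transcription elongation, also named after its values were seen, fell by 0.33, a call that did not hold without any 1 clone (limma adjusted p = 0.0706 to 0.133), nor with another prior (0.0727), quantile normalization (0.0831), neighbouring genes subtracted (0.193) or a 1.2-fold threshold (0.738).

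The genes whose profiles lay closest to each member were found by the root-mean-square distance over the 6 clones, each profile being centred on its own mean, among 9097 genes at or above the median level. For Ccnd1 these were Gpr85, Cep43 and Ptp4a2, at distances of 0.20 to 0.23 log2 units, where the median distance of all eligible genes was 0.95. For Ccnd2 they were Rmdn2, Dtna and Sat1, at 0.13 to 0.15, and for Cdk6 they were Gla, Ttc39c and Srbd1, at 0.17 to 0.19. Mospd2, Dennd1b and Vstm5 lay closest to Ccnd3, at 0.09 to 0.11, and Zfp943, Zfp142 and Hps4 to Cdk4, at 0.04 to 0.06. No member was among the 3 closest of another. Profiles of 6 clones in 2 groups share the difference between genotypes, so a small distance is a description of these clones.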

How the data were processed

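RNA from 6 fibroblast clones had been labelled with biotin by a 3' one-cycle protocol and hybridised to 1-colour Affymetrix arrays, 1 for each clone, per the labels. The deposited values are log2 intensities made by the authors with RMA, per the submitters' processing notes; the sources used here give neither its version nor its settings. Wild type clone E is written with 9 decimals and the other clones with 3; the sources used here do not say whether it was processed apart. An array has no depth in reads, and the number of clones limits the precision (median SE 0.141 over all genes).

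Groups and clone letters came from the sample titles. Of 45101 probe sets, 64 controls, 932 with several symbols and 9160 without a symbol were left out. Symbols came from GEO's platform annotation, and 34741 of the 34945 probe sets matched the RefSeq gene table (GRCm38.p6) through their gene ID; the table served for symbols and gene order. The genotypes were compared by limma (version 3.58.1, R version 4.3.3; lmFit, then eBayes, genotype alone, Benjamini-Hochberg at 0.05), over all genes for leading probe sets and over all probe sets for the others. Level percentiles refer to means over the 6 clones. Figures used matplotlib 3.10.9 in Python 3.11.15. The fit was tested on simulated data.

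The members, the 7 lists and the markers were chosen with earlier results of these data known. Named were the members, Fhl2, all CDK inhibitors, the 4 members of each other list with the smallest p and the 3 closest profiles of each member; some are given as names alone. Rb1, Cdk2, Rrm1, Rrm2, Ccnh, Cdk7, Gsk3b, Ctnnb1, Xist, the Gapdh and beta-actin controls and single markers were named for their roles after their values were seen, as were the genes so marked in the text. Ccnb1, Hsp90ab1, Tcf7 and Nfkb1 were listed but not analysed here. Protein sequences were not used here. Alternatives were another prior, normalization, probe set choice, level filter, array weights, a 1.2-fold threshold, subtraction of neighbouring genes and leaving out each clone. The subtraction used the median of uncentred levels of 40 genes, so a shift it causes need not be shared by those genes.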

Additional observations from a re-analysis of the deposited data

How the results depend on the processing

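In the fits over genes, the 5 members and Fhl2 kept their directions under every alternative run. Apart from the fits without 1 clone, none of these 6 genes changed its call there. Single probe sets did turn: 1422439_a_at of Cdk4 went from -0.14 to 0.04 without knockout clone H. For Ccnd3, 1444323_at went from 0.05 to -0.11 without knockout clone J and to -0.06 without wild type clone I. Fhl2 has no value in the alternative that left out probe sets ending in _x_at, _s_at or _a_at, since its single probe set ends in _a_at. Over the 6 fits that left out 1 clone, the difference of Ccnd1 was -1.96 to -1.33 and that of Ccnd3 -0.84 to -0.48. The number of genes that passed was 1661 to 4750 without 1 clone and 1658 with a 1.2-fold threshold, against 3464. Numbers of listed genes that passed without 1 clone were 2 to 4 for CDK inhibitors, 1 to 4 for pocket proteins and E2F factors, 0 to 4 for later cyclins and kinases, 2 to 6 for E2F targets, 0 to 4 for D cyclin turnover, 2 to 10 for promoter-binding factors and 5 to 10 for other cyclins. With array weights, 5 CDK inhibitors, 5 pocket proteins and E2F factors, 13 promoter-binding factors and 10 other cyclins and kinases passed. With a 1.2-fold threshold, 3 E2F targets, 2 turnover genes and 2 promoter-binding factors passed. With neighbouring genes subtracted, 5 CDK inhibitors, 5 later cyclins and kinases and 0 turnover genes passed, and Cdkn1b and Dennd1b turned to 0.010 and 0.061. For array weights and for neighbour subtraction the share of all genes that passed is not given here. Those counts are therefore not read as results about the lists. Fewer clones leave fewer degrees of freedom; the cause of the other shifts was not tested. No paired analysis was possible because the clone letters of the genotypes share only E and the labels pair no clones.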
